A study of Mus musculus with 6 samples.

Results

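The miR-26 family and the pair miR-103 and miR-107 are 4 mature mouse microRNAs (miRNAs), short RNAs that silence messenger RNAs, and they lie within genes of metabolic and transcriptional enzymes. The members are mmu-miR-26a-5p, mmu-miR-26b-5p, mmu-miR-103-3p and mmu-miR-107-3p, written without mmu from here on. They were selected by name, as the non-control probes that carry one of these names, and the rule uses no measured value, although the set was proposed with earlier results of these data known. All 4 were found, among 1881 mouse miRNAs on the arrays and 237 that could be tested. Of the 4415 probes on an array, 8 belonged to the members. The samples were left ventricles of male C57BL/6 mice, 3 from mice given sunitinib and 3 from mice given vehicle, called control here. Sunitinib is an inhibitor of several receptor tyrosine kinases that is used against kidney and gastrointestinal tumours and can injure the heart. The labels used here give no dose, duration or age, and no genetic change in either group. Nothing in them states that the 6 samples are 6 animals, and a p-value therefore reflects the spread among samples, some of which could be technical.

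A mature miRNA pairs with its targets mainly through its seed, bases 2 to 8, so that miRNAs with one seed can repress many of the same messenger RNAs. The precursors of miR-103 and miR-107 lie within the pantothenate kinase genes Pank1, Pank2 and Pank3, whose enzymes start the synthesis of coenzyme A, and the mature miRNAs are known from mouse liver and fat as regulators of insulin sensitivity, with caveolin-1 among their targets. The miR-26 precursors lie within Ctdsp1, Ctdsp2 and Ctdspl, which encode small phosphatases that act on the tail of RNA polymerase II, and miR-26 is known to act on insulin signalling in the mouse liver and on the potassium channel gene Kcnj2 in the heart. A miRNA within a host gene on the same strand can be transcribed together with it.

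The mature sequences are shown because the sister miRNAs of each family differ by so few bases that an array can separate them only through those bases. They run 5′ to 3′ and are from RefSeq on build GRCm38.p6, which held a mature sequence for all 4 members and for 1608 of the 1881 miRNAs on the array. Capitals mark the seed.
miR-26a-5p: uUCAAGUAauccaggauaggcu
miR-26b-5p: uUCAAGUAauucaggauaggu
miR-103-3p: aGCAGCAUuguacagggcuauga
miR-107-3p: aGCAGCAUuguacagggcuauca

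Both miR-26 members carried the seed UCAAGUA, and both miR-103-3p and miR-107-3p carried GCAGCAU. Among the array miRNAs with a RefSeq sequence, no miRNA other than these 4 carried either seed. Counted from 1 at the 5′ end, miR-26a-5p differed from miR-26b-5p by C11U and C21U, and it has 22 bases against 21. MiR-103-3p differed from miR-107-3p by the single substitution G22C, with 23 bases each.

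The RefSeq table placed 6 hairpins behind the 4 members, each within the span of one host gene on the same strand. MiR-26a-5p comes from Mir26a-1 within Ctdspl on chromosome 9 and from Mir26a-2 within Ctdsp2 on chromosome 10, and miR-26b-5p comes from Mir26b within Ctdsp1 on chromosome 1. MiR-103-3p comes from Mir103-1 within Pank3 on chromosome 11 and from Mir103-2 within Pank2 on chromosome 2, and miR-107-3p comes from Mir107 within Pank1 on chromosome 19. The signal of miR-26a-5p and that of miR-103-3p is therefore the sum of 2 loci, which the array cannot divide. Host messenger RNAs were not analysed here, and the table did not say whether a hairpin lay in an intron or an exon.

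Each member was read by a pair of nested probes, each printed 15 times per array. The probes are DNA, complementary to the 3′ part of the mature miRNA, and are shown because their few distinguishing letters carry the whole separation of sister miRNAs. Capitals mark letters that are not the Watson-Crick complement of the sister miRNA when the sisters are aligned from their 5′ ends.
miR-26a-5p, brighter probe: AGcctatcctgGatta
miR-26a-5p, dimmer probe: AGcctatcctgGatt
miR-26b-5p, brighter probe: AcctatcctgAattacttga
miR-26b-5p, dimmer probe: AcctatcctgAattacttg
miR-103-3p, brighter probe: tCatagccctgtacaatg
miR-103-3p, dimmer probe: tCatagccctgtacaat
miR-107-3p, brighter probe: tGatagccctgtacaatgct
miR-107-3p, dimmer probe: tGatagccctgtacaatgc

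The 16-letter probe of miR-26a-5p covers bases 7 to 22 and has 3 letters that do not match miR-26b-5p. Its capital G letters lie at the sites of C11U and C21U, where a weaker G-U wobble pair with miR-26b-5p remains possible, and its capital A lies beyond the end of miR-26b-5p. The 20-letter probe of miR-26b-5p covers bases 2 to 21 and has 2 letters that do not match miR-26a-5p, at the same substitutions. The 18-letter probe of miR-103-3p covers bases 6 to 23, the 20-letter probe of miR-107-3p covers bases 4 to 23, and each has 1 such letter, near the probe's 5′ end. How much of a sister miRNA binds each probe was not tested, so the separate values of sisters, most of all of miR-103-3p and miR-107-3p, are uncertain.

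The files placed these probes on mouse build mm9, at both loci where a miRNA has a pair of hairpins. The brighter probe of miR-26a-5p was mapped to chr9:118940935-118940950 and chr10:126432605-126432620, and that of miR-103-3p to chr2:131113844-131113861 and chr11:35595954-35595971. The brighter probe of miR-26b-5p was mapped to chr1:74440900-74440918 and that of miR-107-3p to chr19:34895232-34895250, spans of 19 bases for probes of 20 letters. The files list the miR-107-3p span from the high to the low coordinate, and Mir107 is on the minus strand in RefSeq.

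All 6 arrays lay on 1 slide and had no saturated spots, and 10.94% to 11.98% of their 56430 non-control spots were well above background, meaning above it by 13 times the background's standard deviation (SD). Between 234 and 252 miRNAs per array were well above background. The heart muscle miRNAs miR-1a-3p, miR-133a-3p, miR-208a-3p and miR-499-5p were well above background on all 6 arrays, and none of 8 markers of liver, brain, pancreas and epithelium could be tested. Both endothelial markers were tested and neither passed. Of 5 blood cell markers tested, miR-223-3p and miR-142a-3p fell in sunitinib ventricles by 1.32 and 0.64 on the log2 scale (limma adjusted p = 0.00086 and 0.0200). The other 3 did not pass, with changes of 0.35 for miR-150-5p, 0.19 for miR-451a and -0.10 for miR-144-3p, so the list did not fall as a whole. The call of miR-223-3p held in all 21 alternatives, while that of miR-142a-3p was lost in 9 of them, among them slide row as a block (limma adjusted p = 0.246), the summed signal (0.061) and the omission of any one control (0.085 to 0.10). In whole ventricle, fewer cells of a type and less RNA per cell cannot be told apart. Sunitinib replicates 1 and 2 lay in slide row 1, while sunitinib replicate 3 and all controls lay in row 2.

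Over the 6 arrays, 720 of 720 member spots were well above background, and 12 of them were left out as outliers. The median signal of a member probe on an array ran from 180 to 5079 intensity units. The coefficient of variation over the spots of 1 probe on 1 array had a median of 5.51% and a range of 2.92% to 15.2%. Differences between arrays are set out below as scaled log2 signal, one brighter probe standing for each miRNA.

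Sunitinib against control asked whether these heart-expressed metabolic miRNAs differ between treated and vehicle ventricles. None of the 4 members passed the test, and their changes lay between a fall of 0.035 and a rise of 0.19 on the log2 scale. The background was low as well, since 8 of 237 tested miRNAs, 3.38%, passed a limma adjusted p of 0.05. A miss does not show that a level is equal in both groups, so the intervals below give the sizes of change these arrays allow. At an unadjusted p under 0.05, 45 of 237, 19.0%, were called, and no member was.

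MiR-26a-5p, the member with the highest estimate, had log2 signals of 12.13, 11.86 and 12.09 in sunitinib replicates 1 to 3, against 11.86, 11.87 and 11.77 in control replicates 1 to 3. Sunitinib replicates 1 and 3 lay above every control, while sunitinib replicate 2 lay among the controls, so the groups overlapped. The means were 12.02 ± 0.15 in sunitinib and 11.83 ± 0.057 in control ventricles (SD, n = 3 each). The log2 change was 0.19 (SE 0.089, 95% interval -0.02 to 0.41), which did not pass (limma adjusted p = 0.297, unadjusted p = 0.070). On the linear scale that is 1.14-fold, with an interval of 0.985-fold to 1.33-fold. Without sunitinib replicate 2 the change was 0.28 (0.11 to 0.44), and it still did not pass (limma adjusted p = 0.072). The interval also left out 0 with a trended robust variance (0.01 to 0.37) and with array weights (0.06 to 0.39). It covered 0 in the other 18 of 21 alternatives.

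MiR-26b-5p, which shares the seed, had log2 signals of 10.89, 10.70 and 10.89 in sunitinib ventricles, against 10.76, 10.82 and 10.79 in control ventricles. The same pair of sunitinib arrays, replicates 1 and 3, were above every control, and sunitinib replicate 2 was the lowest of the 6 arrays. The means were 10.83 ± 0.11 in sunitinib and 10.79 ± 0.028 in control ventricles (SD, n = 3 each). The log2 change was 0.040 (SE 0.074, 95% interval -0.14 to 0.22, limma adjusted p = 0.815). On the linear scale that is 1.03-fold, with an interval of 0.908-fold to 1.16-fold.

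MiR-103-3p had log2 signals of 8.81, 8.87 and 8.88 in sunitinib ventricles, against 8.88, 8.91 and 8.87 in control ventricles. All 6 arrays lay close together, with sunitinib replicate 1 the lowest and control replicate 2 the highest, and the groups overlapped. This signal lies at the percentile to which the arrays were scaled, which itself draws the values together. With no scaling the change was -0.029 (SE 0.16). The means were 8.85 ± 0.037 in sunitinib and 8.89 ± 0.020 in control ventricles (SD, n = 3 each). The log2 change was -0.035 (SE 0.056, 95% interval -0.17 to 0.10, limma adjusted p = 0.776), a ratio of 0.976 with an interval of 0.888 to 1.07.

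MiR-107-3p, which differs from it by G22C, had log2 signals of 9.46, 9.49 and 9.39 in sunitinib ventricles, against 9.33, 9.35 and 9.41 in control ventricles. Sunitinib replicates 1 and 2 lay above every control, and control replicate 3 lay above sunitinib replicate 3. The means were 9.44 ± 0.051 in sunitinib and 9.36 ± 0.041 in control ventricles (SD, n = 3 each). The log2 change was 0.084 (SE 0.061, 95% interval -0.06 to 0.23, limma adjusted p = 0.524), or 1.06-fold with an interval of 0.957-fold to 1.17-fold.

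**Figure D1:**
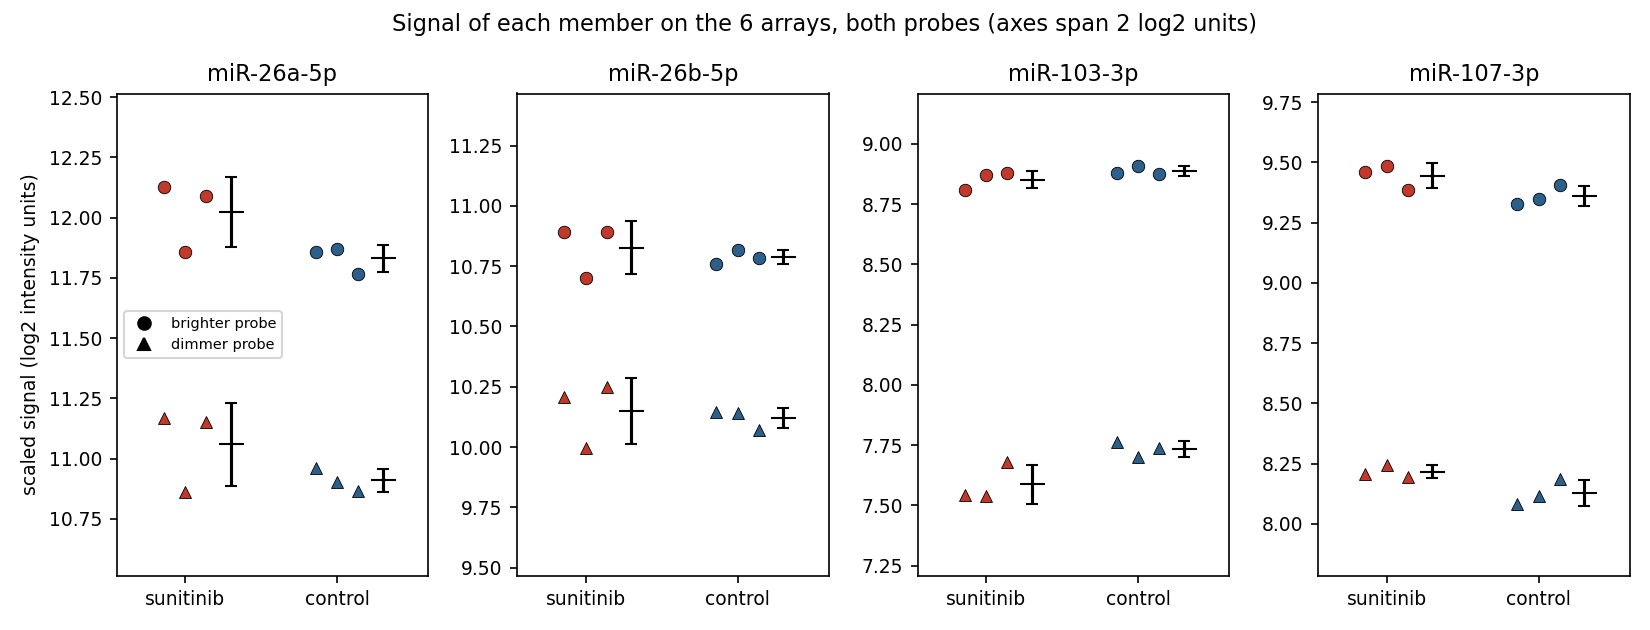
Scaled log2 signal of each member on the 6 arrays, in 4 panels whose vertical axes each span 2 log2 units. Sunitinib is on the left and control on the right, circles are the brighter and triangles the dimmer probe, and the crosses beside them are the mean with 1 SD (n = 3 each). The brighter probes of the groups overlap in every panel, and the dimmer probes of miR-103-3p and miR-107-3p do not.

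For 3 members the estimate lay above 0, and for miR-103-3p below it. On the brighter probes, none of the 4 members had groups that did not overlap, against 65 of 237 tested miRNAs, 27.4%. This depended on the probe summary. The groups did not overlap for miR-103-3p with the mean of all probes (change -0.091). Nor did they for miR-107-3p with the summed signal of the scanner software (0.11). The share over all tested miRNAs was not counted under those settings. The median size of change, without sign, was 0.062 over the members and 0.11 over all tested miRNAs. The median change with its sign was 0.062 over the members and 0.019 over all tested miRNAs.

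The dimmer probe of each member served as a check on the brighter one. For the dimmer probe of miR-26a-5p, log2 signals were 11.17, 10.86 and 11.15 in sunitinib ventricles, against 10.96, 10.91 and 10.87 in control ventricles. Sunitinib replicates 1 and 3 were the highest arrays, as on the brighter probe, and sunitinib replicate 2 was the lowest, a place that control replicate 3 held on the brighter probe. The change was 0.15 (SE 0.098, limma adjusted p = 0.488 over 419 tested probes). The dimmer probe of miR-26b-5p changed by 0.031 (SE 0.085, limma adjusted p = 0.881), with sunitinib replicate 2 lowest there too.

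The dimmer probe of miR-103-3p gave 7.54, 7.54 and 7.68 in sunitinib ventricles, against 7.76, 7.70 and 7.74 in control ventricles. Every sunitinib array lay below every control array, as the brighter probe of the same miRNA did not show. Its change was -0.15 (SE 0.067, 95% interval -0.31 to 0.01, limma adjusted p = 0.311, unadjusted p = 0.069). The dimmer probe of miR-107-3p gave 8.21, 8.25 and 8.20 in sunitinib ventricles, against 8.08, 8.12 and 8.19 in control ventricles. Every sunitinib array lay above every control array, by a narrow margin at sunitinib replicate 3 and control replicate 3. Its change was 0.088 (SE 0.061, limma adjusted p = 0.513), close to that of its brighter probe. So 2 of the 8 member probes had groups that did not overlap, 25% of them, and 25.5% of the 419 tested probes did. None of the 8 passed an adjusted p of 0.05, which 15 of 419 probes, 3.58%, did.

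The difference between the brighter and the dimmer probe of one miRNA would be the same in both groups, apart from measurement noise, if both probes read the same RNA. For miR-103-3p it was 1.27, 1.33 and 1.20 on the log2 scale in sunitinib ventricles, against 1.12, 1.21 and 1.14 in control ventricles. The highest values were those of sunitinib replicates 1 and 2, while sunitinib replicate 3 lay among the controls, a group difference of 0.11 (exact two-sided permutation p = 0.2). For the other members the group difference was 0.046 for miR-26a-5p, 0.009 for miR-26b-5p and -0.004 for miR-107-3p, all with overlapping groups. The 2 probes of miR-103-3p gave estimates of -0.035 and -0.15, and the overlapping groups do not show that the readings truly differ. The dimmer one was also the weakest member probe, at 180 to 244 intensity units.

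Whether the sisters of a seed family moved apart was read from the log2 ratio of one to the other on each array, which removes any factor that scales a whole array. The absolute ratio depends on the probes and is not a ratio of amounts, so only its group difference is of use. The log2 ratio of miR-26a-5p to miR-26b-5p was 1.24, 1.16 and 1.20 in sunitinib ventricles, against 1.10, 1.05 and 0.98 in control ventricles. Every sunitinib array lay above every control array. The group difference was 0.15, or 1.11-fold in favour of miR-26a-5p, with means of 1.20 ± 0.039 in sunitinib and 1.04 ± 0.059 in control ventricles (SD, n = 3 each). The exact two-sided permutation p was 0.1, the smallest that 3 against 3 can give, and 0.2 after Benjamini-Hochberg adjustment over the 2 families. Among all pairs of tested miRNAs, 7622 of 27966 ratios, 27.3%, had groups that did not overlap, so such a separation was common on these arrays.

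With the dimmer probes in place of one or both brighter probes, the shift of miR-26a-5p over miR-26b-5p was 0.11 to 0.16, and the groups did not overlap in 3 of 4 probe combinations. After quantile normalization the shift was 0.043 and the groups overlapped (exact permutation p = 0.6). Within slide row 2, which holds 1 sunitinib and 3 control arrays, the difference was 0.15, with no test possible on 1 array.

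The log2 ratio of miR-103-3p to miR-107-3p was -0.65, -0.62 and -0.51 in sunitinib ventricles, against -0.45, -0.44 and -0.53 in control ventricles. All controls lay above sunitinib replicates 1 and 2, while sunitinib replicate 3 lay among the controls. The group difference was -0.12 (exact two-sided permutation p = 0.2, and 0.2 after adjustment over the 2 families), with means of -0.59 ± 0.074 in sunitinib and -0.47 ± 0.051 in control ventricles (SD, n = 3 each). Over the 4 probe combinations the difference ran from -0.12 to -0.23, and the groups did not overlap in the 3 that used at least 1 dimmer probe. Within slide row 2 it was -0.036, so the value was smaller where both groups shared a row, and row and treatment cannot be fully told apart with 1 sunitinib array there.

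**Figure D2:**
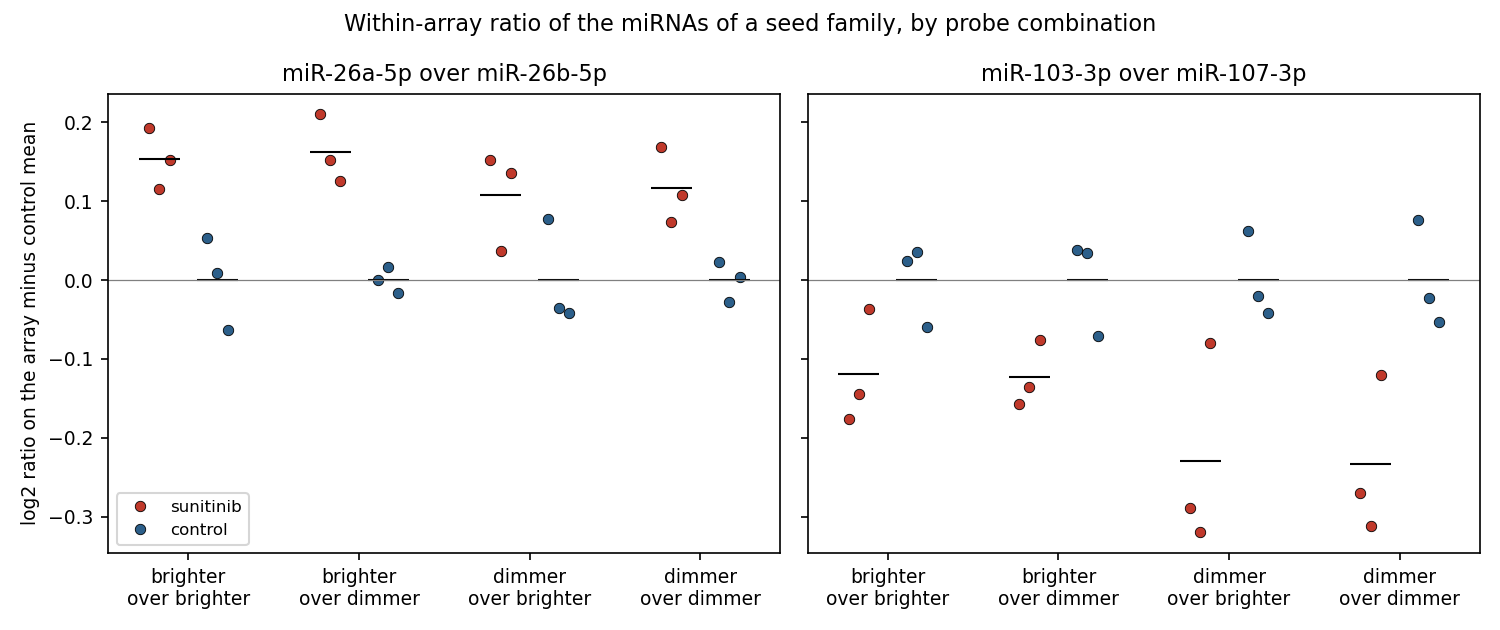
Log2 ratio of miR-26a-5p to miR-26b-5p (left) and of miR-103-3p to miR-107-3p (right) on each array, minus the control mean, for the 4 combinations of brighter and dimmer probes. Sunitinib arrays are drawn left of control arrays, and short lines are group means (n = 3 each). The sunitinib mean lies 0.11 to 0.16 above control on the left and 0.12 to 0.23 below it on the right.

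For the single members, the same row comparison set sunitinib replicate 3 against the mean of the 3 controls. The difference was 0.26 for miR-26a-5p, 0.10 for miR-26b-5p, -0.010 for miR-103-3p and 0.027 for miR-107-3p. All 4 kept the sign of the full comparison. That comparison holds the same sunitinib array and the same controls, so the agreement is partly built in.

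The members differed in how steady they were. The SD of log2 signal within groups was 0.11 for miR-26a-5p and 0.081 for miR-26b-5p, against a median of 0.11 over the 237 tested miRNAs. It was 0.030 for miR-103-3p and 0.046 for miR-107-3p, the 8th and the 20th lowest of 237. MiR-103-3p lay at the percentile to which the arrays were scaled. Its value was 8.87731 on both sunitinib replicate 3 and control replicate 1, and miR-199b-5p had that value on control replicate 3. The low SD of miR-103-3p is therefore set in part by the scaling and is no separate sign of steadiness. The dimmer probe of miR-103-3p varied more, with an SD of 0.080 in sunitinib and 0.032 in control ventricles, against 0.037 and 0.020 on the brighter probe. MiR-103-3p is often used as a reference for normalising miRNA measurements in tissue. On the brighter probe its place in the order of 237 moved with the scaling. It was 18 with the median of the probes well above background, 37 with quantile normalization, 44 with the percentile of all probes and 81 with no scaling. MiR-107-3p moved to 44, 35, 58 and 64 under the same scalings in that order. With normexp background correction in place of the scanner software's, miR-103-3p was at 3 and miR-107-3p at 17, and in values of the authors' deposited table, which differ in several choices at once, they were at 22 and 8. Over all these settings the SD ran from 0.026 to 0.16 for miR-103-3p and from 0.031 to 0.15 for miR-107-3p.

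**Figure D3:**
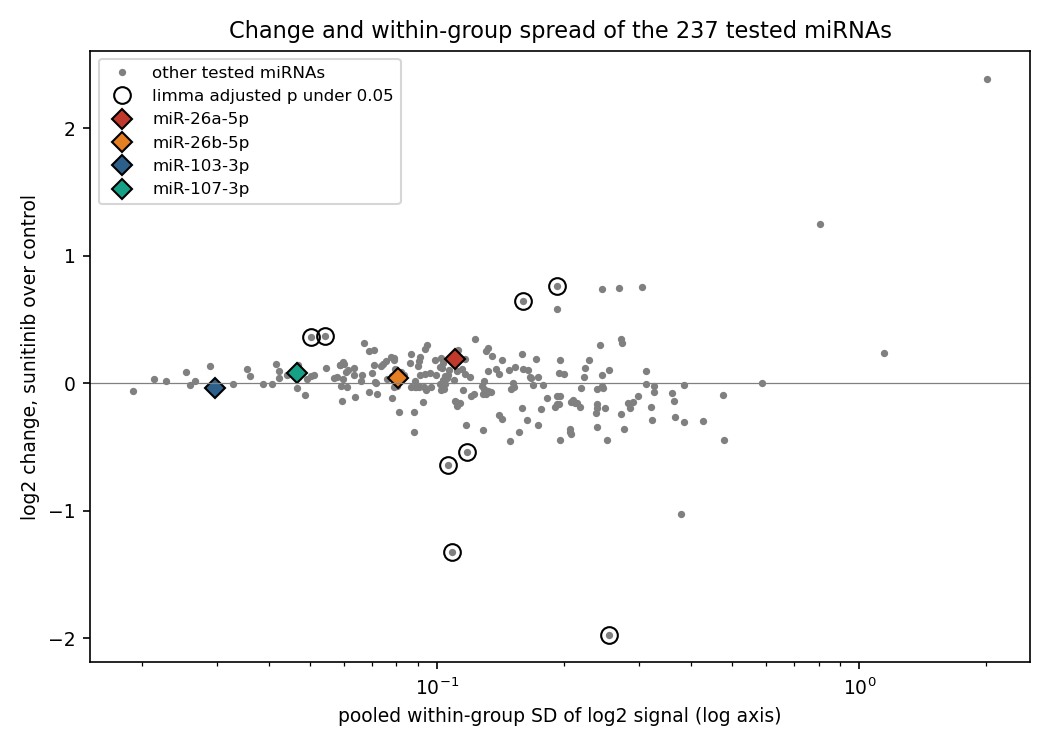
Log2 change of sunitinib over control (vertical axis) against the SD within groups (horizontal log axis) for the 237 tested miRNAs, one point each. Coloured diamonds are the 4 members and open circles mark the 8 miRNAs with a limma adjusted p under 0.05. The members lie between -0.035 (miR-103-3p) and 0.19 (miR-26a-5p) on the vertical axis. MiR-103-3p and miR-107-3p lie towards the low end of the spread under the scaling used here.

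Across the 6 arrays as scaled here, miR-26a-5p and miR-26b-5p varied together (Pearson r = 0.81, Spearman rho = 0.71). MiR-103-3p and miR-107-3p varied in opposite directions (r = -0.63, rho = -0.84). That opposition depends on the scaling, since with no scaling both were lowest on control replicate 3, at 8.66 and 9.19. The median r over all pairs of tested miRNAs was 0.056. These are descriptions of 6 points that share one slide, one scaling and the group difference. The miRNAs whose array pattern was most like that of miR-26a-5p were miR-208b-3p (r = 0.966), miR-30e-3p (0.946) and miR-322-5p (0.941). For miR-26b-5p they were miR-20a-5p (0.980), miR-340-3p (0.980) and miR-28c (0.977), whose own changes were 0.049, 0.074 and 0.067. For miR-103-3p they were miR-99b-5p (0.883), miR-677-3p (0.874) and miR-154-5p (0.872), the last of which cleared background on 0 of 3 sunitinib and 3 of 3 control arrays. For miR-107-3p they were miR-24-1-5p (0.971), miR-29c-5p (0.954) and the heart muscle miRNA miR-133a-3p (0.951), which changed by 0.11 (SE 0.074, limma adjusted p = 0.460).

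A hairpin gives a pair of mature arms, of which the members are the abundant ones. Of 6 partner arms, 5 are on the arrays: miR-26a-1-3p, miR-26a-2-3p, miR-26b-3p, miR-103-1-5p and miR-107-5p. None of their probes was well above background on any of the 6 arrays, so they have no measured change. MiR-103-2-5p was not analysed here. The partner arms would have separated the loci Mir26a-1 and Mir26a-2, and at this signal they cannot.

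MiR-103-3p and miR-107-3p belong to the miR-15 and miR-107 group, whose members share AGCAGC near the 5′ end and include regulators of the cell cycle and of heart muscle growth. All 7 other members listed were tested, and none passed. Their median change was -0.024, against 0.019 over all tested miRNAs, and 3 of the 7 were above 0. MiR-15a-5p, miR-16-5p and miR-497a-5p changed by -0.025, -0.024 and -0.030, and miR-15b-5p and miR-195a-5p by 0.090 and 0.085. MiR-195a-5p, known to enlarge the mouse heart when overexpressed, had all sunitinib arrays above all control arrays, as did miR-322-5p, which had a change of 0.18 (SE 0.083, limma adjusted p = 0.297). Such groups, with sunitinib higher, were seen in 43 of 237 tested miRNAs, 18.1%. MiR-503-5p, which shares a cluster with miR-322-5p, had log2 signals of 3.80, 3.84 and 4.01 in sunitinib ventricles, against 3.98, 4.22 and 4.52 in control ventricles. Sunitinib replicate 3 lay just above control replicate 1, so the groups overlapped, and the change was -0.36 (95% interval -0.71 to -0.01, limma adjusted p = 0.254).

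**Figure D4:**
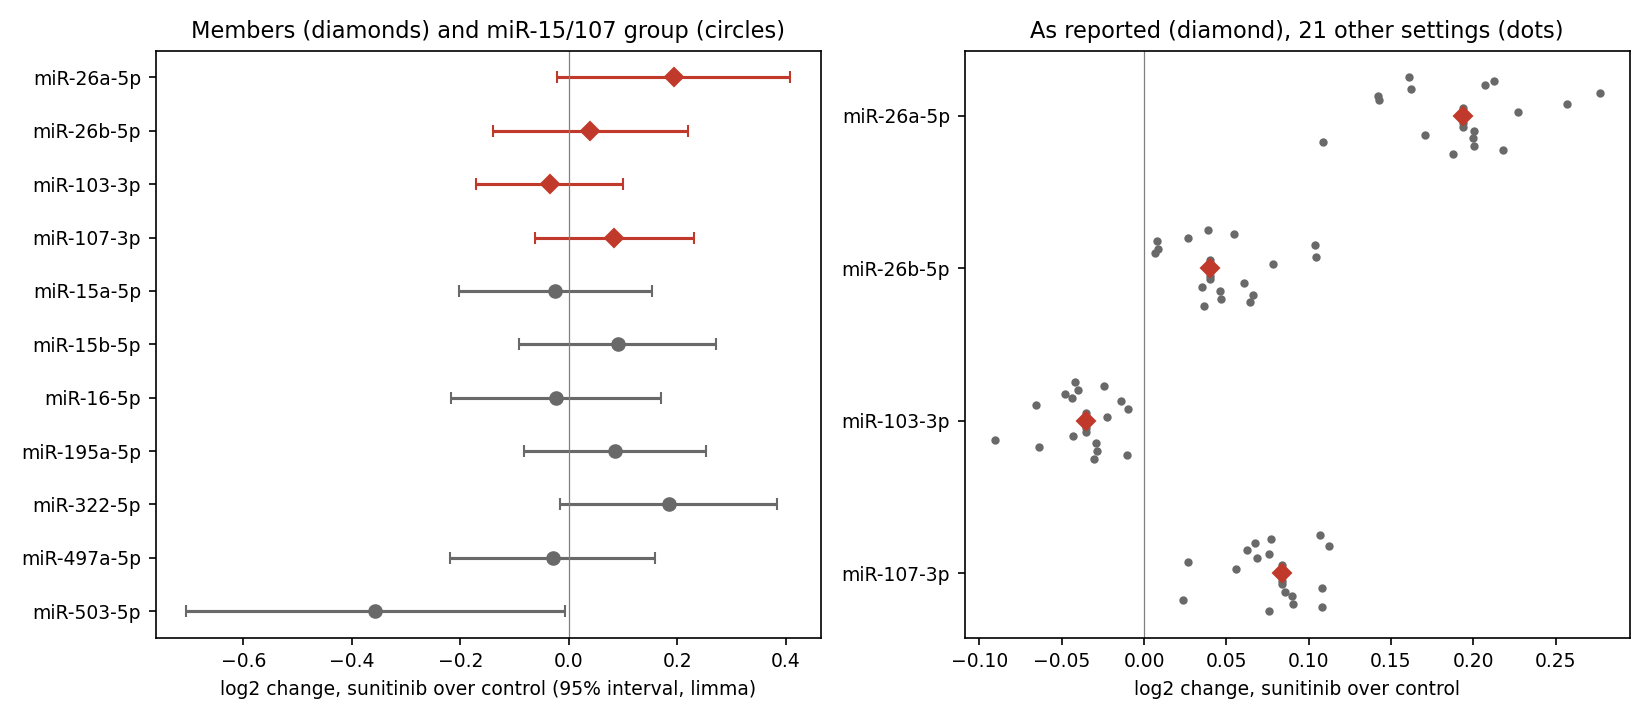
Left, log2 change of sunitinib over control with its 95% interval (limma) for the 4 members (diamonds) and the 7 listed miRNAs of the miR-15 and miR-107 group (circles). Right, the change of each member as reported (diamond) and under 21 other settings (dots). All 4 member intervals on the left cover 0, and on the right every member keeps its sign.

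Of 17 other miRNAs listed for roles in lipid, glucose or insulin metabolism, 13 could be tested, 12 did not pass and 1 was lower. The lower one was miR-223-3p, an abundant miRNA of myeloid cells that is also on the blood marker list, with a change of -1.32 (SE 0.088, limma adjusted p = 0.00086). The next by p were miR-29a-3p, a repressor of collagens, with 0.26 (SE 0.090, limma adjusted p = 0.211), miR-30c-5p with 0.15 (SE 0.070, limma adjusted p = 0.303) and miR-185-5p with 0.14 (SE 0.071, limma adjusted p = 0.346). The median over the 13 was 0.040. MiR-33-5p, which lies within Srebf2 and acts on cholesterol export, and miR-122-5p of liver were not well above background on any array.

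Of 27 other miRNAs listed as lying within protein-coding genes, 24 could be tested and none passed. Their median change was 0.019, with 13 of 24 above 0. The smallest unadjusted p was that of miR-139-5p, which lies within Pde2a and had log2 signals of 7.86, 7.76 and 7.72 in sunitinib ventricles, against 7.39, 7.48 and 7.51 in control ventricles. Every sunitinib array lay above every control array, and the change was 0.32 (SE 0.068, 95% interval 0.15 to 0.48, limma adjusted p = 0.076). MiR-149-5p, within Gpc1, and miR-25-3p, within Mcm7, followed with 0.23 and 0.17 (limma adjusted p = 0.204 and 0.246). MiR-208b-3p, which lies within the heart myosin gene Myh7, had log2 signals of 7.05, 5.22 and 6.57 in sunitinib ventricles, against 4.88, 5.71 and 4.49 in control ventricles. Sunitinib replicates 1 and 3 lay above every control and sunitinib replicate 2 did not. The sunitinib samples had the same order as for miR-26a-5p, which restates the correlation given above and is no separate finding. MiR-29a-3p and miR-30c-5p were among other miRNAs with that order of sunitinib samples. The change of miR-208b-3p was 1.25 (SE 0.53, 95% interval -0.02 to 2.53, limma adjusted p = 0.263).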

How the data were processed

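Total RNA of 6 ventricle samples was labelled with Cy3 and hybridised singly to Agilent mouse miRNA arrays, per the labels' protocols. The deposited scanner files hold spot intensity on a linear scale, with background removed by the scanner software, Agilent Feature Extraction (10.7 per the submitters' processing notes, 10.7.1.1 per the file headers, which name build mm9). The authors' deposited value table holds log2 values, with medians of 2.195 to 2.200 per array. How it was scaled and centred is not stated in the labels. Its columns matched their own arrays best (r of between-array differences 0.919 to 0.954), and it was used only as an alternative.

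Control and outlier spots were left out. Each array was scaled to the 75th percentile of log2 signal over 393 probes well above background on all 6 arrays, with shifts of -0.22 to 0.17. Signals below 1 were set to 1, and log2 values were averaged over the spots of a probe. The brightest probe represents its miRNA. Testing required at least 50% of spots well above background on each of the 3 arrays in at least 1 group. The titles gave groups and replicate numbers. The comparison used limma 3.58.1 (lmFit, eBayes) in R 4.3.3, adjusted by Benjamini-Hochberg over 237 miRNAs or 419 probes at 0.05. The exact tests went through every split of the samples in Python 3.11.15 with numpy 2.4.6. Their adjustment over the 2 families and the Spearman rho used scipy 1.17.1. The number of arrays limits the precision. The fit was tested on simulated data, in which the changes other than 0 were larger than those of the members. That test does not show how well changes of the members' size are found.

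The members and lists were chosen with earlier results of these data known. Named miRNAs are the 4 members, their partner arms, the miR-15 and miR-107 list, up to 4 of each of the other 2 lists by unadjusted p plus any that passed, and the 3 most correlated with each member. Markers were named as lists, and miR-33-5p and miR-122-5p were named after their values were seen. The 21 alternatives changed background correction (normexp, offset 50), scaling, floor, filter, probe summary, variance model, weights, blocks, input values and the arrays left out. Same-numbered samples correlated at 0.18, 0.22 and -0.06, and the other pairs at -0.31 to 0.25. These values neither show nor exclude pairing. The titles give only numbers, which served as names in the main comparison.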

Additional observations from a re-analysis of the deposited data

How the results depend on the processing

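No member passed an adjusted p of 0.05 under any of the 21 alternatives, and all 4 kept their sign. The sign could not change with no filter, the filter on all 6 arrays, the floor at 4, trended variance or the replicate block, which left each estimate as it was. The row block gave the same differences as the comparison within slide row 2. The change of miR-26a-5p ran from 0.11 to 0.28 (limma adjusted p 0.072 to 0.934), that of miR-26b-5p from 0.01 to 0.10, that of miR-103-3p from -0.09 to -0.01 and that of miR-107-3p from 0.02 to 0.11. The dimmer probe of miR-26b-5p reversed, to -0.024 with quantile normalization and to -0.019 without sunitinib replicate 3 (range -0.019 to 0.11 leaving out 1 replicate at a time). The cause was not tested. The ratio of miR-26a-5p to miR-26b-5p had groups that did not overlap in 14 of 17 alternatives, and that of miR-103-3p to miR-107-3p in 5 of 17. The replicate block and the row block, which give no overlap call, are counted among the rest. A change of scaling factor or floor leaves both ratios as they are. Leaving out 1 array cannot make groups overlap that were apart. For miR-26a-5p to miR-26b-5p these settings therefore repeat the main result and add no support. Settings that act only on the fit across miRNAs (no filter, the filter on all 6 arrays, trended variance and array weights) have no value for the ratios. Of all tested miRNAs 8 passed, 4 higher and 4 lower. This count was 4 with normexp, 4 with quantile normalization (0 higher, 4 lower), 4 with no scaling (1 higher, 3 lower), 2 with the summed signal, 3 with no filter, where 1881 miRNAs were tested, 13 with array weights and 1 with slide row as a block. Leaving out 1 array at a time gave 2 to 8, with 2 without any one control and 4 without sunitinib replicate 1 or 2. The replicate block gave 2, left every member's change as it was (limma adjusted p = 0.389 for miR-26a-5p) and is no sign of pairing, since only a number is shared. Of 545 comparisons over 26 other named miRNAs, 522 kept their direction and their side of the threshold, 9 (all of miR-142a-3p) kept the direction but lost the call, and 14, none of them called, changed sign. With 3 arrays a group, 0.1 is the smallest exact p.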
